A study of Rattus norvegicus with 12 samples.

Results

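The heat shock proteins and cochaperones described here are 10 genes, namely Hspa1a, Hsph1, Hsp90ab1, Dnajb1, Dnaja1, Stip1, Cacybp, Chordc1, Hspd1 and Hspe1, of 12853 genes tested in rat bronchoalveolar lavage fluid (BALF) cells. They were chosen from earlier results of these same arrays, above all the differences between COMB and LPS and between HPO and CTL, so those differences are given as values with no test. The genes were measured by 15 of the 31099 probe sets on the array, counting only probe sets that name 1 of them alone. Each gene is represented by its probe set of highest mean, and the others serve as a check. All 15 passed the filter on dim probe sets.

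The arrays came from 8-week-old male Sprague-Dawley rats, which were fasted and had no water during the experiment. COMB rats were given 0.5 mg/kg LPS by tail vein and then placed in the decompression chamber. LPS rats were given the same dose in normoxia. HPO rats, like COMB rats, stayed in the chamber for 6 h at 405.35 mmHg, the pressure of 5000 m altitude and the equivalent of 11.2% oxygen, and the labels name no injection for them. CTL rats were given saline by tail vein and stayed in normoxia. Specimens were collected under the air condition of each treatment, after chloral hydrate anesthesia. Each group had 3 arrays, and each array carried pooled RNA that the study describes as coming from 3 rats, but 2 of the COMB pools carry only 2 rat numbers in their labels. Values are given below in the order of the pools of rats 2 and 3, rats 10 and 11, and rats 12, 13 and 14 for COMB. The order is rats 2, 3 and 6, rats 5, 7 and 11, and rats 8, 9 and 10 for LPS. It is rats 7, 8 and 9, rats 2, 4 and 11, and rats 3, 5 and 12 for HPO, and rats 1, 3 and 4, rats 5, 6 and 7, and rats 8, 9 and 10 for CTL. The question put to the data is how the 10 genes stood in each group, with hypoxia added to LPS or given alone.

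Heat shock proteins are chaperones: they bind unfolded or partly folded proteins, keep them from clumping and help them to fold. Their genes are switched on together by heat shock factor 1, a transcription factor that is held inactive by chaperones in resting cells and that binds inverted repeats of the unit GAA in promoters when unfolded proteins build up. HSP70 works with J-domain proteins, which bring substrates and speed its ATP hydrolysis, and with exchange factors, which release the nucleotide. Selected substrates such as kinases and hormone receptors then pass to HSP90. In macrophages, which make up most lavage cells of a healthy lung, the same family is known for its links to fever, oxidative stress and Toll-like receptor signaling.

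The promoters of the members are shown first because heat shock factor sites are the feature that the family is known to share. The RefSeq promoter table for the rat assembly GRCr8, with 250 bases before and 50 after each gene's start, held all 10 members. A pair of inverted units was searched as GAANNTTC and TTCNNGAA, each of which is its own reverse complement, so that a match counts for both strands. At least 1 pair lay in the promoters of 8 members, against 15.9% of all 33469 promoters in the table. The promoters of Hspa1a (gene at chr20:3859756-3863800, plus strand) and Hsp90ab1 (gene at chr9:22930249-22935929, plus strand) had no match in this window. A run of 3 units, GAANNTTCNNGAA or TTCNNGAANNTTC, was found in 5 members, namely Hsph1, Hspd1, Hspe1, Dnaja1 and Chordc1, and in 0.798% of all promoters. Runs of 3 units also count as overlapping pairs. The matches are strings of letters and were not tested as binding sites.

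Hsph1 had 3 matches before its start, and the stretch that holds them is printed whole because it carries a single pair and, closer to the start, a run of 3 units. The other sequences are windows of at most 30 bases around the matches, and capitals mark the units in each:
Hsph1, chr12:10427258-10427367, plus strand: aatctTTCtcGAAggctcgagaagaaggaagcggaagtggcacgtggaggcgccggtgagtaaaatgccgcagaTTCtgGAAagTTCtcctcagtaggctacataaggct
Dnaja1, chr5:60638405-60638433, plus strand: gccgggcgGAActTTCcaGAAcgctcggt
Dnaja1, chr5:60638212-60638241, plus strand: aaaagcctctaGAAgaTTCtacaaggatcg
Chordc1, chr8:23650828-23650856, plus strand: ccgGAAcgTTCggGAAgaTTCctGAAgca
Hspe1, chr9:64084256-64084285, plus strand: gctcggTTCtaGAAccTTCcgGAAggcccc
Hspd1, chr9:64084256-64084285, minus strand: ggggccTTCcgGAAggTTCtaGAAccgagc
Stip1, chr1:213657644-213657673, minus strand: cttctagtaggTTCcaGAAggcggcgcgtg
Cacybp, chr13:74981233-74981262, minus strand: tggagcctcgcGAAggTTCcagagccgtct
Dnajb1, chr19:41431134-41431163, minus strand: cgggaggggcgGAAggTTCtggagggctgg
Dnajb1, chr19:41431106-41431135, minus strand: ggcgggatctgGAAgcTTCcgccggacggg

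Hspd1 and Hspe1 lie head to head on chromosome 9, their windows share 211 bases, and the 3 matches of each are the same 3 sites read from opposite strands. In Chordc1 4 overlapping pairs lay 10 to 32 bases after the start that the table uses. Stip1, Cacybp and Dnajb1 each had a pair within 12 bases before the start. The starts that the table uses for Hspd1, Cacybp, Hsp90ab1 and Chordc1 lie inside the annotated span of the gene, so distances for these genes hold for that start only.

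**Figure D1:**
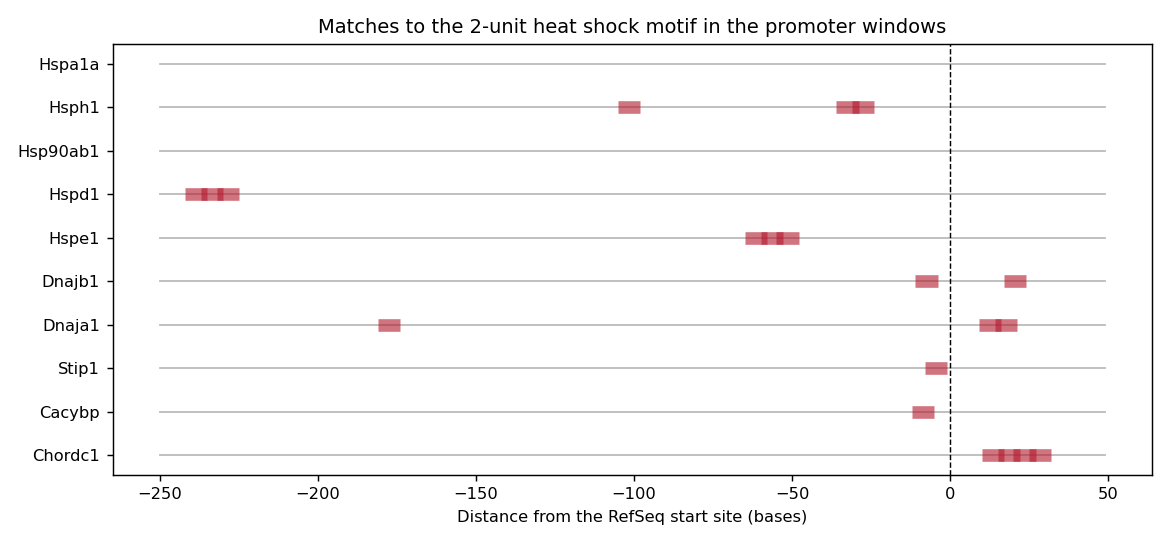
Position of each match in the promoters of the 10 members, in bases from the gene's start (x axis, with the start at 0), 1 row per gene; marks stand for pairs of inverted units and overlapping marks for runs. Hspa1a and Hsp90ab1 have no mark, and the marks of Hspd1 and Hspe1 are the same sites.

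The levels of cell type markers differed between the groups, and their part in the results below was not tested. The markers of alveolar macrophages, 8 of 10 measured, summed to 17370 to 20453 in COMB pools, 20684 to 22279 in LPS pools, 18757 to 19334 in HPO pools and 18027 to 19493 in CTL pools. Most of each sum was Mrc1, Plin2 and Cd68, so the sums say little about dimmer markers. Pparg was 296, 285 and 230 in COMB pools, 465, 450 and 397 in LPS pools and 819, 651 and 772 in CTL pools. Car4 was 64.9, 744 and 309 in COMB pools, against 17.4, 27.9 and 21.0 in LPS pools. The neutrophil markers, 7 of 10 measured, summed to 6464 to 11139 in COMB pools, 2053 to 2733 in LPS pools, 200 to 334 in HPO pools and 300 to 2827 in CTL pools. A large part of the COMB and LPS sums was Lcn2, at 3717 to 4960 in COMB and 888 to 1091 in LPS pools. S100a9 had 1820 to 4403 in COMB and 513 to 1099 in LPS pools, while Csf3r had 86.3 to 508 and 65.7 to 124, which overlapped. The sums of all 10 airway epithelial markers were 12296 to 16482 in COMB pools, 9347 to 9838 in LPS pools, 8995 to 10580 in HPO pools and 4762 to 7178 in CTL pools. Most of each sum was Scgb1a1, at 9489 to 10726, 8478 to 8755, 7078 to 9407 and 4107 to 6353 in the same order of groups. The sums therefore say little about the dimmer epithelial markers. Epcam, for instance, was 845, 495 and 385 in COMB pools, against 149, 88.3 and 129 in LPS pools. T and NK cell markers (all 10 measured) summed to 1159 to 6221 in COMB pools, 541 to 930 in LPS pools, 841 to 996 in HPO pools and 567 to 2339 in CTL pools, and B cell markers (3 of 6 measured) to 79.7 to 445, 60.7 to 77.2, 58.3 to 76.3 and 58.1 to 230 in the same order of groups. Between COMB and LPS, 9 epithelial, 7 T and NK cell, 1 neutrophil, 1 B cell and 1 macrophage marker rose and 2 macrophage markers fell. Between HPO and CTL none of these markers passed the test. In pooled tissue, fewer cells of a type and less RNA per cell cannot be told apart.

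Hspa1a (probe set 1370912_at, chromosome 20), the heat-inducible HSP70 that cells make after protein damage, differed most between COMB and LPS. Its intensity was 178, 132 and 137 in COMB pools, against 752, 719 and 541 in LPS pools. It was 89.1, 77.7 and 111 in HPO pools, against 156, 454 and 172 in CTL pools. LPS pools were all above the pools of the other 3 groups, HPO pools were the lowest, and the CTL pool of rats 5, 6 and 7 stood far above the other two. The log2 fold change was −2.16 ± 0.33 (SE), or 4.46-fold lower, for COMB against LPS and −1.32 ± 0.33, or 2.50-fold lower, for HPO against CTL. Without the CTL pool of rats 5, 6 and 7 the log2 fold change for HPO against CTL was −0.83. That pool also had an S100a9 intensity of 2011, against 20.6 and 60.2 in the other CTL pools; S100a9 is a calcium-binding protein abundant in neutrophils.

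A probe set that names both Hspa1a and its near-identical copy Hspa1b, and that was added after the data were seen, averaged 167 ± 53.9 in COMB pools and 561 ± 171 in LPS pools (SD, n = 3 each). It averaged 85.5 ± 1.34 in HPO pools and 269 ± 219 in CTL pools. Which of the 2 copies these probe sets measured is uncertain, since the genes share most of their sequence.

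Hsph1 (1388898_at, chromosome 12) encodes HSP105, the large relative of HSP70 that releases its nucleotide. It had intensities of 621, 645 and 654 in COMB pools, against 1707, 1434 and 2263 in LPS pools. The HPO pools had 328, 252 and 342, against 481, 521 and 520.1 in CTL pools. No pool of any group overlapped with a pool of another, and the order was LPS, COMB, CTL and HPO. On the log2 scale the difference was −1.47 ± 0.16 for COMB against LPS (2.76-fold lower) and −0.73 ± 0.16 for HPO against CTL (1.66-fold lower). A second, dimmer probe set of Hsph1 (1385620_at) had the same order of group means, with 87.4 ± 2.05 in COMB, 284 ± 71.5 in LPS, 36.7 ± 10.9 in HPO and 67.6 ± 3.44 in CTL pools (SD, n = 3 each).

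Hsp90ab1 (1375336_at, chromosome 9), the HSP90 form made in all cells, supports the folding of kinases and receptors. Its intensity was 3060.0, 3028 and 3045 in COMB pools, against 3992, 4071 and 4489.6 in LPS pools. It was 2618, 2442 and 2689 in HPO pools, against 3052, 2939 and 3095 in CTL pools. COMB pools lay within the range of the CTL pools, while LPS pools lay above and HPO pools below them. On the log2 scale Hsp90ab1 differed by −0.46 ± 0.08 for COMB against LPS (1.37-fold lower) and −0.23 ± 0.08 for HPO against CTL (1.17-fold lower). The other Hsp90ab1 probe set (1375335_at) averaged 3125 ± 628 in COMB and 4259 ± 359.7 in LPS pools, and 2458 ± 302 in HPO and 2916 ± 265 in CTL pools (SD, n = 3 each). HPO and CTL pools overlapped there.

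Dnajb1 (1388722_at, chromosome 19), the heat-inducible HSP40, had intensities of 377, 456 and 411 in COMB pools, against 759, 686 and 624 in LPS pools. The HPO pools had 378, 348 and 476, against 503, 489 and 494 in CTL pools. The COMB and HPO pools overlapped and lay below all CTL pools, and the 3 CTL values differed little. Its log2 fold change was −0.73 ± 0.13 for COMB against LPS (1.66-fold lower) and −0.32 ± 0.13 for HPO against CTL (1.25-fold lower). Its dimmer probe set (1383302_at) averaged 130.3 ± 18 in COMB and 174 ± 15.9 in LPS pools, and 116 ± 31.0 in HPO and 138 ± 3.57 in CTL pools (SD, n = 3 each), where HPO and CTL pools overlapped.

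Dnaja1 (1398819_at, chromosome 5), a J-domain protein of the cytosol that carries substrates to HSP70, had intensities of 915, 1137 and 1056 in COMB pools, against 1981, 1695 and 1977 in LPS pools. In HPO pools it had 891, 813 and 966, against 1163, 1123 and 1112 in CTL pools. COMB pools overlapped with both HPO and CTL pools, and LPS pools lay above all others. This gave log2 fold changes of −0.86 ± 0.11 for COMB against LPS (1.82-fold lower) and −0.35 ± 0.11 for HPO against CTL (1.28-fold lower). The other Dnaja1 probe set (1368852_at) averaged 578 ± 14.3 in COMB and 1145 ± 186 in LPS pools, and 496 ± 53.9 in HPO and 628 ± 17.0 in CTL pools (SD, n = 3 each).

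Stip1 (1398877_at, chromosome 1) encodes HOP, the adaptor that joins HSP70 to HSP90 and hands substrates over. Its intensity was 249, 253 and 269.8 in COMB pools, against 435, 394 and 464 in LPS pools. It was 123, 116 and 169 in HPO pools, against 197, 201 and 199.9 in CTL pools. As for Hsph1, the 4 groups did not overlap and ran in the order LPS, COMB, CTL and HPO. Its log2 fold change was −0.74 ± 0.13 for COMB against LPS (1.67-fold lower) and −0.57 ± 0.13 for HPO against CTL (1.48-fold lower).

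Cacybp (1392912_at, chromosome 13), the calcyclin-binding protein known in human cells from a ubiquitin ligase complex, had intensities of 484, 589 and 529 in COMB pools, against 1709, 1325 and 2298 in LPS pools. The HPO pools had 679, 694 and 448, against 705, 744 and 888 in CTL pools. COMB pools lay below all CTL pools and overlapped with HPO pools, in which the pool of rats 3, 5 and 12 was low. On the log2 scale the difference was −1.70 ± 0.21 for COMB against LPS (3.25-fold lower) and −0.38 ± 0.21 for HPO against CTL (1.30-fold lower). In the other Cacybp probe set (1392979_at) COMB averaged 344 ± 26.0 and LPS 801 ± 164, while HPO averaged 335 ± 17.3 and CTL 370.5 ± 62.2 (SD, n = 3 each), so that HPO and CTL pools overlapped there.

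Chordc1 (1383160_at, chromosome 8), an HSP90-binding protein with cysteine- and histidine-rich domains, had intensities of 187, 256 and 285 in COMB pools, against 549, 463 and 479 in LPS pools. It had 221, 175 and 174 in HPO pools, against 291, 302 and 292 in CTL pools. COMB pools lay below the CTL pools and overlapped with the HPO pools. These values gave log2 fold changes of −1.05 ± 0.15 for COMB against LPS (2.07-fold lower) and −0.64 ± 0.15 for HPO against CTL (1.56-fold lower).

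Hspd1 and Hspe1 encode HSP60 and HSP10, the barrel and the lid of the chaperonin that folds proteins in mitochondria. Hspd1 (1386894_at, chromosome 9) had intensities of 2867, 2304 and 2558 in COMB pools, against 3723, 3423 and 4032 in LPS pools. The HPO pools had 2253, 2068 and 2510.3, against 2817, 2539 and 2688 in CTL pools. COMB pools spanned the CTL range, and the highest HPO pool was just below the lowest CTL pool. Hspd1 had a log2 fold change of −0.53 ± 0.11 for COMB against LPS (1.45-fold lower) and −0.24 ± 0.11 for HPO against CTL (1.18-fold lower).

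Hspe1 (1386898_at, chromosome 9) had intensities of 2437, 2288 and 2477 in COMB pools, against 3248, 3230.3 and 3730.4 in LPS pools. It had 2200.3, 2098 and 2541 in HPO pools, against 2678, 2344 and 2409 in CTL pools. LPS pools stood above all others, and the other 3 groups overlapped. Hspe1 had a log2 fold change of −0.50 ± 0.10 for COMB against LPS (1.42-fold lower) and −0.12 ± 0.10 for HPO against CTL (1.09-fold lower).

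**Figure D2:**
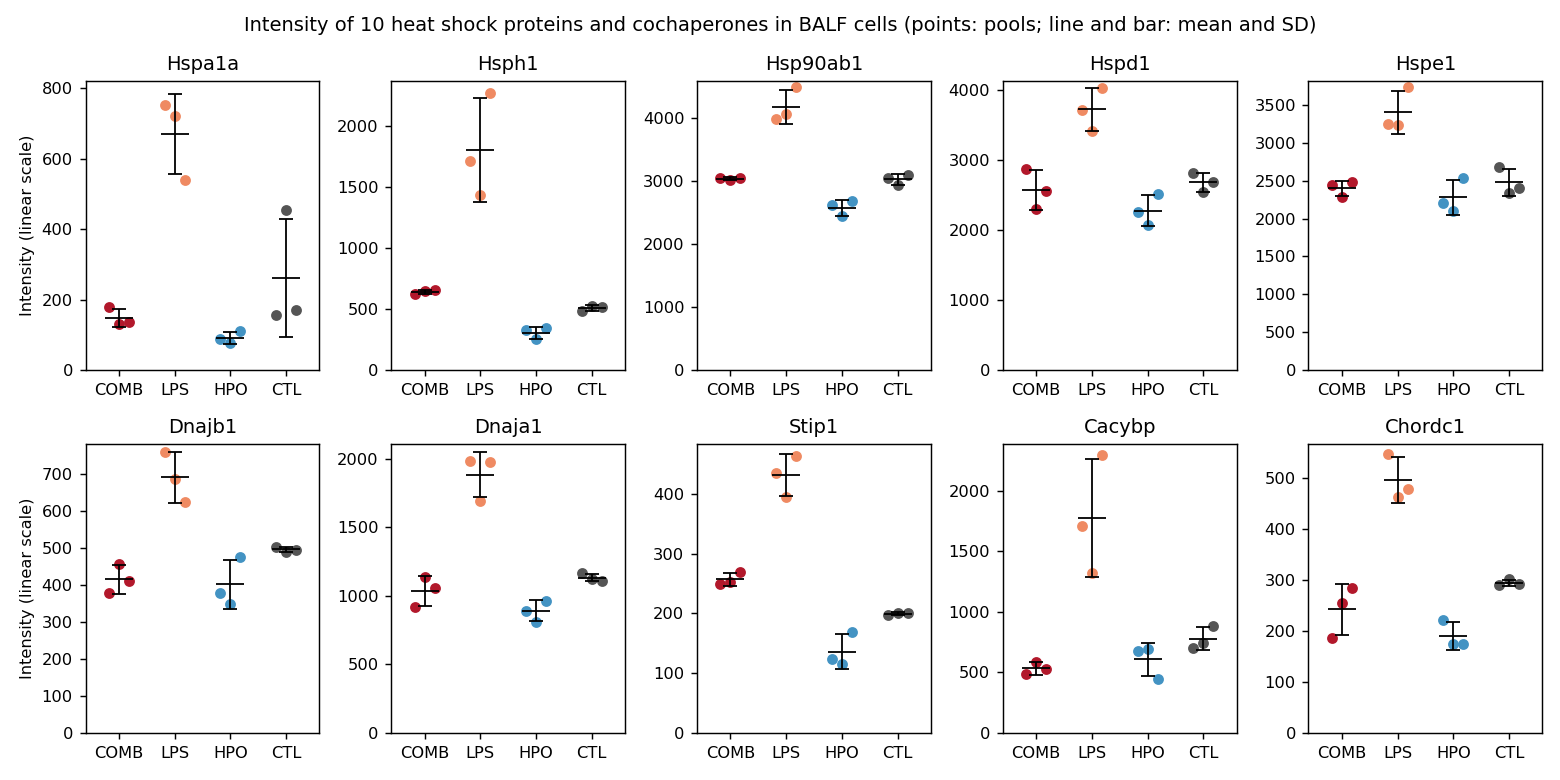
Intensity of each member in every pool (y axis, linear scale starting at 0, 1 panel per gene) for COMB, LPS, HPO and CTL; points are pools, and lines and bars give the mean and SD of 3 pools. In all 10 panels the 3 LPS pools lie above the 3 COMB pools, and in Hsph1 and Stip1 no groups overlap.

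Across the members, every COMB pool was below every LPS pool in 10 of 10 genes. Among all genes tested this held for 17.1%. Every HPO pool was below every CTL pool in 9 of 10, with Hspe1 the exception, against 6.78% of all genes. The members were chosen on these differences, so nothing is read from either count. Both counts use the probe set of highest mean. In the other probe sets of Hsp90ab1, Dnajb1 and Cacybp the HPO and CTL pools overlapped, unlike in those of Hsph1 and Dnaja1. The median log2 fold change over the members was −0.80 for COMB against LPS and −0.37 for HPO against CTL, while the median over all genes was 0.005 and −0.0042 in the same order. In COMB against LPS 4 members were more than 2-fold lower and 6 were less than 2-fold lower. As a description, the limma fit called all 10 lower there, where 5.04% of all genes were called lower and 8.71% higher. Of the 5 other probe sets that name a member alone, those of Dnajb1 (−0.42) and Hsp90ab1 (−0.46) were not called, and those of Hsph1, Dnaja1 and Cacybp were. None of the members was called in HPO against CTL, where 0.0311% of all genes were called higher and 0% lower. Without COMB rats 2 and 3, 1 member was called and the genes called numbered 66 in place of 4. With quantile normalization the genes called between COMB and LPS split into 1136 higher and 1187 lower, in place of 1120 and 648, and all 10 members stayed below 0.

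LPS against CTL, COMB against HPO and COMB against CTL share arrays with the differences on which the members were chosen, so the members' values are given with no test. LPS against HPO, which differ in both exposures, was not analysed here. Every LPS pool was above every CTL pool in all 10 members, as in 12% of all genes. This holds for the probe sets of highest mean. In the probe set naming both Hspa1a and Hspa1b, LPS rats 8, 9 and 10 (364) lay below CTL rats 5, 6 and 7 (521). The log2 fold change for LPS against CTL was highest for Hsph1 (1.80 ± 0.16) and Hspa1a (1.52 ± 0.33), then Cacybp (1.16 ± 0.21), Stip1 (1.11 ± 0.13), Chordc1 (0.75 ± 0.15) and Dnaja1 (0.73 ± 0.11), and 0.46 to 0.47 for the other 4, with a median of 0.74. As a description, 8 members were called higher here, where 1.25% of all genes were called higher and 1.52% lower. Of the other probe sets, those of Hsph1, Dnaja1 and Cacybp were called. Those of Hsp90ab1 and Dnajb1 and the one naming both Hspa1a and Hspa1b were not. The number of members called depended on single pools. It was 2 without CTL rats 8, 9 and 10, 3 without CTL rats 1, 3 and 4, and 3, 4 and 3 without LPS rats 2, 3 and 6, LPS rats 5, 7 and 11 or LPS rats 8, 9 and 10. It ranged up to 10, without HPO rats 3, 5 and 12, and over these fits the genes called numbered 43 to 523.

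Between COMB and HPO, the pools did not overlap, with COMB above, in 4 members, namely Hspa1a, Hsph1, Hsp90ab1 and Stip1, against 14% of all genes. In the other Hsp90ab1 probe set COMB pools (2561, 3012 and 3801) and HPO pools (2806, 2302 and 2267) overlapped. The log2 fold change was 1.07 ± 0.16 for Hsph1 and 0.93 ± 0.13 for Stip1, which were the 2 members called higher, and between −0.16 (Cacybp) and 0.68 (Hspa1a) for the rest. The other Cacybp probe set gave 0.04, so the sign for Cacybp depends on the probe set. Of all genes, 9.23% were called higher and 9.36% lower. Between COMB and CTL, where 11.1% of all genes were called higher and 11% lower, no member was called, and 2 were called without HPO rats 3, 5 and 12. Every COMB pool was above every CTL pool in 2 members, Stip1 (0.37 ± 0.13) and Hsph1 (0.33 ± 0.16), as in 17.6% of all genes. Every COMB pool was below every CTL pool in 3 members, Cacybp (−0.54 ± 0.21), Chordc1 (−0.30 ± 0.15) and Dnajb1 (−0.26 ± 0.13), as in 22.1% of all genes. In the other probe sets of Cacybp (−0.09) and Dnajb1 (−0.09) the COMB and CTL pools overlapped. The difference of the differences, (COMB − LPS) − (HPO − CTL), was below 0 in all 10 members, with a median of −0.41, but limma called none of them, and it called 0.156% of all genes higher and 0.0233% lower.

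**Figure D3:**
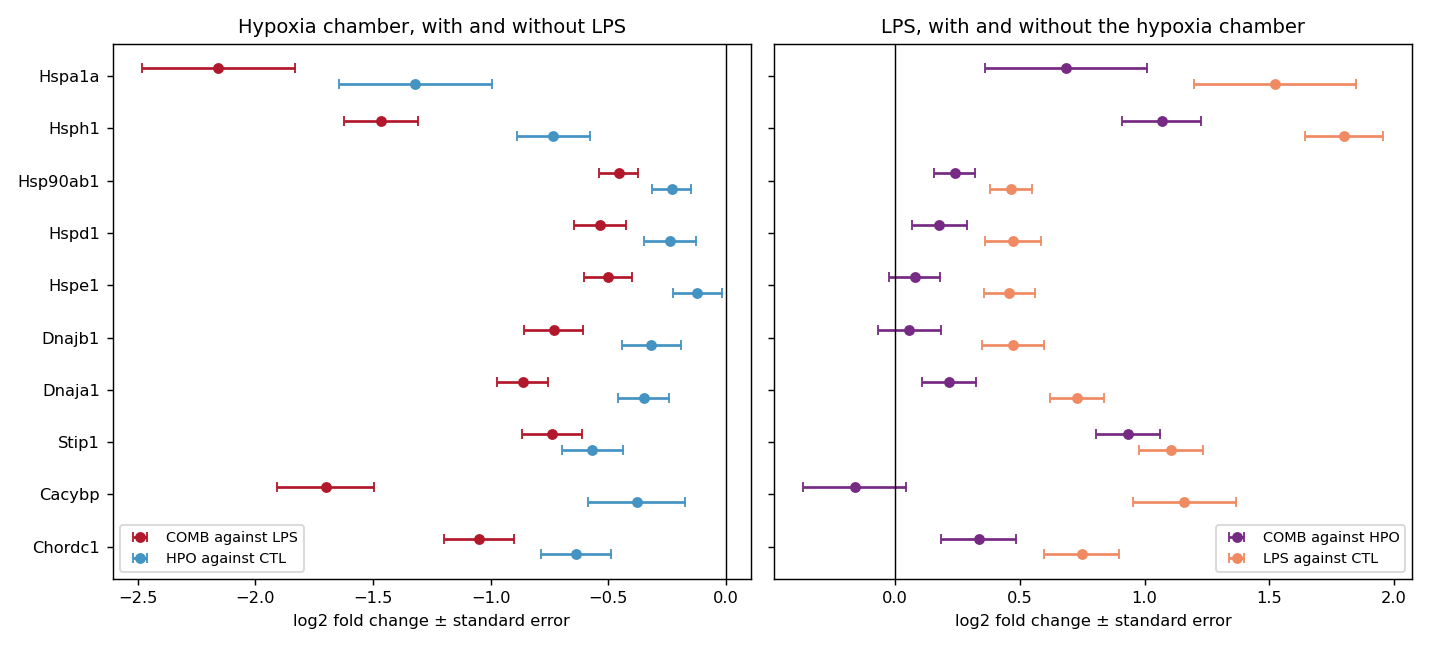
Log2 fold change of each member with its standard error (x axis) for COMB against LPS and HPO against CTL (left panel) and COMB against HPO and LPS against CTL (right panel), 1 row per gene. Values for COMB against LPS run between −2.16 for Hspa1a and −0.46 for Hsp90ab1, and those for HPO against CTL between −1.32 and −0.12.

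With equal groups, 1 contrast is orthogonal to both differences: the mean of COMB and LPS minus the mean of HPO and CTL, the average effect of LPS over both air conditions. It was tested with limma, with p values adjusted by Benjamini-Hochberg over 25692 probe sets, although the members were chosen with the values of all groups known, so its p values are not independent evidence. By this test 9 of 10 members rose with LPS on average, where 8.85% of all genes were called higher and 11.8% lower. The average does not show a rise in each air condition. Over the members the median was 0.74 in LPS against CTL, with 8 called, and 0.23 in COMB against HPO, with 2 called. In the average effect the log2 fold change was 1.43 ± 0.11 for Hsph1 (adjusted p = 1.75e-05), 1.02 ± 0.09 for Stip1 (adjusted p = 4.9e-05) and 1.10 ± 0.23 for Hspa1a (adjusted p = 0.00653). Chordc1 (0.54, adjusted p = 0.00454), Dnaja1 (0.47, adjusted p = 0.00149) and Hsp90ab1 (0.35, adjusted p = 0.00178) rose less, as did Hspd1 (0.32, adjusted p = 0.0141). These 7 kept their calls when any pool was left out, and the highest adjusted p among them was then 0.04, for Hspd1.

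The other 3 members lay near the threshold. Cacybp had a log2 fold change of 0.50 ± 0.15 (limma adjusted p = 0.0349) and lost its call in 7 of the 12 fits that leave out 1 pool. The adjusted p was then 0.0851 without CTL rats 1, 3 and 4, 0.066 without CTL rats 5, 6 and 7, 0.0667 without LPS rats 2, 3 and 6 and 0.0787 without LPS rats 8, 9 and 10. It was 0.0663 without HPO rats 3, 5 and 12, 0.0727 without COMB rats 10 and 11 and 0.0604 without COMB rats 12, 13 and 14. Its other probe set gave 0.57 (adjusted p = 0.00368). Hspe1 had 0.27 ± 0.07 (adjusted p = 0.0249) and lost its call in 6 of these fits, with adjusted p values of 0.0569 and 0.0645 without CTL rats 5, 6 and 7 or rats 8, 9 and 10, and 0.0655 without LPS rats 8, 9 and 10. They were 0.0565 and 0.0564 without HPO rats 7, 8 and 9 or rats 2, 4 and 11, and 0.0527 without COMB rats 12, 13 and 14. Dnajb1 had 0.26 ± 0.09 and was not called (adjusted p = 0.0616), but passed without HPO rats 3, 5 and 12 (0.0128) or without COMB rats 2 and 3 (0.0433). Its other probe set also gave 0.26 and was not called (limma adjusted p = 0.17).

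Markers of other cell types also moved in this contrast. Of the neutrophil markers 4 of 7 rose and none fell, of the epithelial markers 8 of 10 rose and none fell, and of the macrophage markers 1 of 8 rose and 1 fell.

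The members were chosen for a shared pattern over the groups, which sets much of their correlation over the 12 arrays. The Pearson correlation of each member's log2 values with the mean of the other members lay between 0.86 for Cacybp and 0.99 for Dnaja1, as a description over arrays that share groups. With the group means removed, it ran between −0.20 for Cacybp and 0.86 for Hsph1, and was 0.85 for Stip1, 0.74 for Dnaja1 and −0.18 for Hspa1a. For Chordc1 it was 0.07, so that within groups the pools of Hspa1a, Cacybp and Chordc1 did not follow the other members.

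The genes whose pattern over the 12 arrays was most like the mean of the members, out of 12843 others, were Mtmr4 (r = 0.98), Ahsa1 (0.97), Tmem33 (0.97), Snx16 (0.96) and Ptges3 (0.96). Ahsa1 is the activator of HSP90's ATPase and Ptges3 is p23, which binds HSP90 in its closed form. Ahsa1 averaged 457 in COMB and 763 in LPS pools, 399.5 in HPO and 461 in CTL pools. The genes most opposite were Zbtb20 (−0.98), Cirbp (−0.97), Ccdc9 (−0.95), Marchf7 (−0.95) and Sp1 (−0.95). Cirbp encodes an RNA-binding protein made in the cold, and its intensity averaged 211 in COMB, 59.4 in LPS, 379.6 in HPO and 167 in CTL pools. These correlations are a ranking, with no p.

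Other chaperones were examined in 8 lists with 100 genes, of which 93 were measured alone; Hspa8, Hsp90aa1 and Hspa1b share their probe sets with another gene and were not analysed alone. In COMB against LPS, 14 of the 93 fell and 2 rose, by the limma test, as against 5.04% and 8.71% of all genes. The ER chaperones gave 5 of the 14: 5 of 15 fell and none rose. They included Hspa5 (BiP, the HSP70 of the ER), which had 1735, 1777 and 1847 in COMB pools, against 2736, 2931 and 3255 in LPS pools, and a log2 fold change of −0.73 ± 0.10 (adjusted p = 0.00169). Hsp90b1, the HSP90 of the ER, fell by 0.60 on the log2 scale (adjusted p = 0.00188), and Dnajb9, a J-domain protein of the ER, fell by 0.63 (adjusted p = 0.00259).

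Among HSP90 and its cochaperones 3 of 14 fell and none rose. Ahsa1 had 488, 424 and 458 in COMB pools, against 759, 735 and 795 in LPS pools, and fell by 0.74 on the log2 scale (adjusted p = 0.00198). Fkbp4, the immunophilin of steroid receptor complexes, fell by 0.66 (adjusted p = 0.00633), and Ptges3 fell by 0.41 (adjusted p = 0.0104). In the TRiC ring, which folds actin and tubulin, and its partner prefoldin, 2 of 13 fell. Cct8, a TRiC subunit, fell by 0.67 (adjusted p = 0.00128). Cct6a (−0.37, adjusted p = 0.0429) lost its call in 9 of the 12 fits that leave out a pool. These left out any LPS or CTL pool, COMB rats 10 and 11, HPO rats 7, 8 and 9 or HPO rats 2, 4 and 11, and the adjusted p then reached 0.145, without LPS rats 8, 9 and 10.

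In the HSP70 system 2 of 14 fell and 1 rose. Bag3, a BAG-domain cochaperone of HSP70 and itself a heat shock gene, fell by 0.51 on the log2 scale (adjusted p = 0.0195). Its call was lost in 3 of the 12 fits that leave out a pool, with an adjusted p of 0.0842 without LPS rats 2, 3 and 6, 0.0605 without LPS rats 8, 9 and 10 and 0.066 without COMB rats 10 and 11. Hspa14 (−0.34, adjusted p = 0.0385) was lost in 7, which left out any COMB pool, LPS rats 2, 3 and 6 (adjusted p = 0.144, the highest), LPS rats 5, 7 and 11, CTL rats 1, 3 and 4 or HPO rats 7, 8 and 9. Hspa4l, the one that rose (0.57, adjusted p = 0.0393), was dim, at 15.3 ± 3.83 in COMB pools and 9.82 ± 1.18 in LPS pools (SD, n = 3 each). It was lost in 8, which left out any LPS pool (adjusted p = 0.131 without rats 2, 3 and 6, the highest), COMB rats 2 and 3 or rats 10 and 11, HPO rats 7, 8 and 9 or rats 2, 4 and 11, or CTL rats 8, 9 and 10. In the J-domain proteins Dnaja4 fell by 0.82 (adjusted p = 0.0105) and Dnajb6 rose by 0.60 (adjusted p = 0.0111), which was lost without LPS rats 8, 9 and 10 (adjusted p = 0.052). Of 12 mitochondrial chaperones and proteases 1 fell, Yme1l1 (−0.42, adjusted p = 0.0362), a protease of the inner membrane. It was lost in 5 fits, without any LPS pool (adjusted p = 0.117 without rats 8, 9 and 10, the highest), COMB rats 2 and 3 or COMB rats 10 and 11. None of 6 small heat shock proteins and none of 5 heat shock factors and regulators passed the test.

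In HPO against CTL none of the 93 listed genes passed the limma test, where 0.0311% of all genes were called higher and 0% lower. An unadjusted p under 0.05 was found for 14 of them. With no share over all genes beside it, nothing is read from that count. Below 0 were 60 of 93, with a median of −0.07, against −0.0042 over all genes. Among them were 14 of 15 ER chaperones and 10 of 13 of the TRiC list, but only 6 of 14 J-domain proteins. All 10 members, chosen on this difference, were below 0. In the average effect of LPS, 27 of 93 rose and 4 fell, where 8.85% of all genes were called higher and 11.8% lower. Of the ER chaperones 10 of 15 rose and none fell. Creld2, a chaperone of the ER that is induced by its stress response, rose by 1.42 on the log2 scale (adjusted p = 4.36e-06) and Hspa5 by 1.35 (adjusted p = 2.29e-06). Of the TRiC list 6 of 13 rose, among them Cct6a (0.54, adjusted p = 0.000626) and Tcp1 (0.34, adjusted p = 0.012). In the HSP90 list 5 rose and 1 fell, with Fkbp4 (0.64, adjusted p = 0.000609) and Ppid, a cyclophilin that binds HSP90 (0.55, adjusted p = 0.00145), at the front. In the HSP70 list 4 of 14 rose, with St13, which joins HSP70 to HSP90 (0.40, adjusted p = 0.0105), and Hspbp1, an exchange factor (0.38, adjusted p = 0.0121).

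In the average effect of LPS, 1 of 14 J-domain proteins rose and 1 fell. Dnajb2 rose by 0.51 (adjusted p = 0.00379), while Dnajb14 (−0.57, adjusted p = 0.0328) was lost in 7 fits, without COMB rats 10 and 11, COMB rats 12, 13 and 14, LPS rats 8, 9 and 10 (adjusted p = 0.0848, the highest), HPO rats 7, 8 and 9, HPO rats 3, 5 and 12, CTL rats 1, 3 and 4 or CTL rats 5, 6 and 7. In the mitochondrial list 1 of 12 rose and 1 fell. Hspa9, the HSP70 of mitochondria, rose by 0.50 (adjusted p = 0.00281), and Hscb, which serves iron-sulfur cluster assembly, fell by 0.58 (adjusted p = 0.00178). Among the 5 heat shock factors and regulators 1 fell, with a list median of −0.14. This was Hspbap1, which binds the small heat shock protein HSP27 and fell by 0.61 (adjusted p = 0.00105). No small heat shock protein passed. Of the 93, 18 were higher and 1 lower in LPS against CTL, as against 1.25% and 1.52% of all genes. Counts were 19 and 2 in COMB against HPO (9.23% and 9.36% of all genes) and 16 and 5 in COMB against CTL (11.1% and 11%). ER chaperones were 11 of the 18, 10 of the 19 and 10 of the 16 called higher, in the same order of comparisons. No listed gene was called in the difference of the differences, where 0.156% of all genes were called higher and 0.0233% lower. There 6 had an unadjusted p under 0.05, a count from which nothing is read, with no share over all genes beside it.

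**Figure D4:**
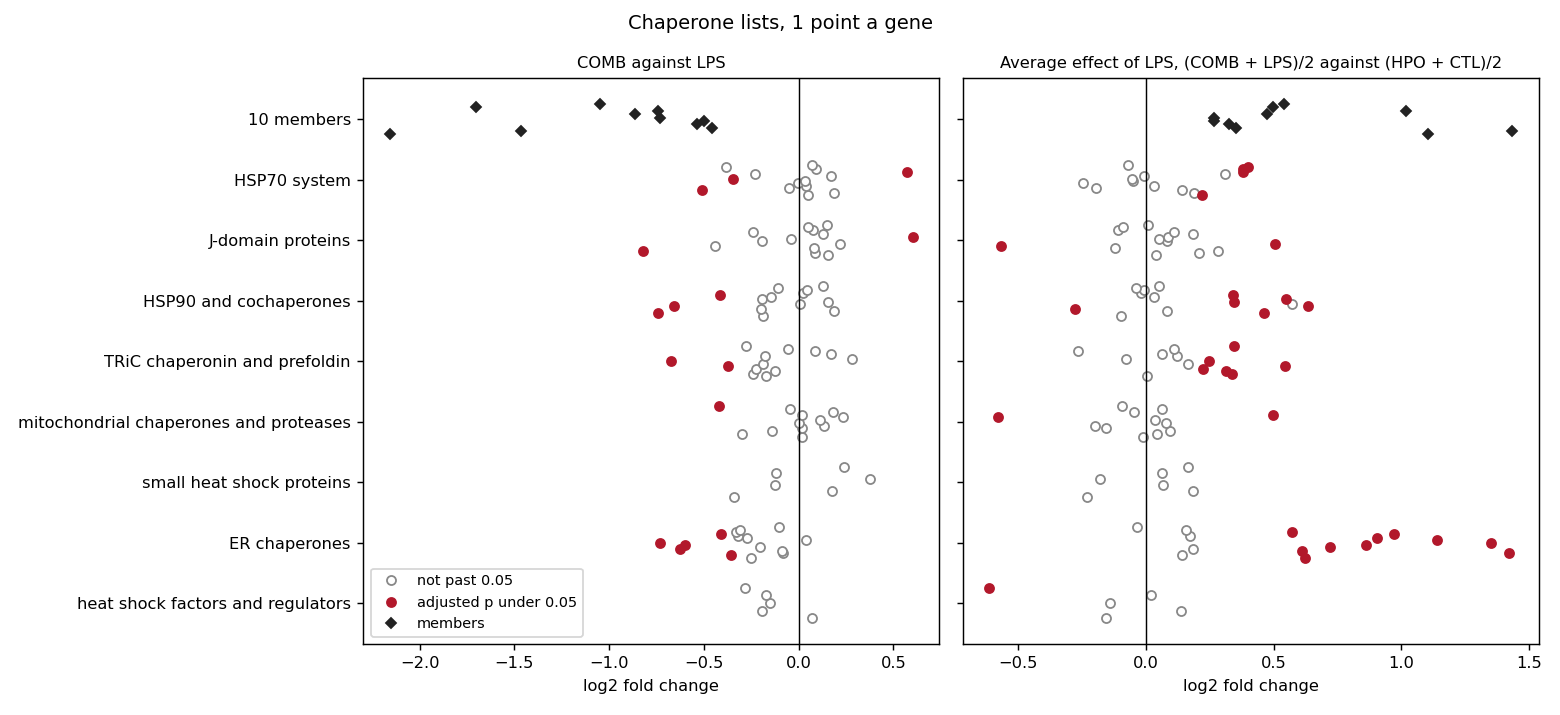
Log2 fold change of each measured gene of the 8 chaperone lists and of the 10 members (x axis), 1 row per list, for COMB against LPS and for the average effect of LPS; circles are listed genes, filled where limma called them, and diamonds are members, drawn alike with or without a call. In COMB against LPS all 10 members, chosen on this difference, lie left of 0, as do 14 of 15 ER chaperones and 10 of 13 of the TRiC list. Of all 93 listed genes 54 lie left of 0 and 39 right, with 14 called lower and 2 higher.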

How the data were processed

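Total RNA of BALF cells was pooled within groups and hybridised to 12 Affymetrix Rat Genome 230 2.0 arrays. The deposited values are 1 linear intensity per probe set and array, as left by the authors' own processing; the method of normalization is not given in the sources used here. All 12 columns were assigned to a group by the labels. Intensities were used as deposited and taken as log2 of the value plus 1. Array medians lay between 32.72 and 35.61, and precision is limited by the number of arrays. Whether pools are separate animals is taken from the labels, and p-values measure the spread between these pools.

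A probe set was tested if it exceeded an array's 20th percentile on 3 or more of the arrays (25692 of 31099, with 57 controls left out). limma 3.58.1 in R 4.3.3 with the data.table package (version 1.17.8) fitted 4 group means to all 12 arrays, with 8 residual degrees of freedom and Benjamini-Hochberg adjustment at a threshold of 0.05. The fit was tested on simulated data. Symbols came from GEO's platform annotation, in which 20832 probe sets name 1 gene, 436 several and 9831 none. Promoters were read with Python 3.11.15, pandas 2.3.3 and matplotlib 3.10.9 from the RefSeq promoters of GRCr8.

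The members, lists and tests were chosen with earlier results of these data known. The rule for named genes took all members, from each chaperone list up to 3 called genes of largest change in COMB against LPS and up to 2 in the average effect of LPS, and the 5 most and 5 least correlated genes. Alternatives were quantile normalization, centring of each array, a pseudocount of 16, 2 other filters, array weights, a trended and robust fit, 1 probe set per gene, a fit of only the groups compared, the methods' t-test, a replicate block, other probe sets of a member and the omission of each array. The probe set naming Hspa1a and Hspa1b was added after the data were seen. Rat numbers shared by CTL and LPS pools name different animals.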

Additional observations from a re-analysis of the deposited data

How the results depend on the processing

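No tested result of the members or named chaperones and none of the members' differences in COMB against LPS or HPO against CTL changed sign under the alternatives. Among the members' untested differences, Hsp90ab1 in COMB against CTL was 0.0076 and became −0.0045 with quantile normalization and −0.048 with centring, and Cacybp in COMB against HPO was −0.16 and 0.04 with its other probe set. The genes called in COMB against LPS had more higher than lower calls, and fewer with quantile normalization. All 10 members were called there without any 1 pool, but they were chosen on this difference, so nothing is read from that. In these fits the genes called numbered 914 to 2196 (914, 1065 and 964 without the LPS pools in their order and 1171 without COMB rats 10 and 11). The count of called members in the average effect of LPS was 9 and lay between 7 and 10 when 1 pool was left out. Apart from the fits without a pool, 315 of 343 values of single tested genes stayed on their side of the threshold, 23 lost it, among them all 14 named in COMB against LPS under the adjusted t-test, and 5 gained it. In those settings the 176 hypoxia differences have no test and are those of the members' main probe sets and their medians. All moved by less than the spread between pools, as did 83 of 100 group means of the members. Other probe sets are not among the 176. In COMB against LPS they gave −1.20 for Cacybp (−1.70 by the main probe set), −0.42 for Dnajb1 (−0.73) and −0.46 for Hsp90ab1 (−0.46). They gave −0.97 for Dnaja1 (−0.86) and −1.66 for Hsph1 (−1.47). All group means under quantile normalization and under centring were among the 83. The 17 that moved came from the check with other probe sets of a member. When a pool was left out, the median difference of the members stayed between −0.87 and −0.75 in COMB against LPS and between −0.43 and −0.34 in HPO against CTL.

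The counts of listed chaperones depended more on the setting, and the cause was not tested. For COMB against LPS, 16 were called, 25 with quantile normalization, 9 with only the 2 groups in the fit, 34 with the methods' t-test unadjusted and 0 with it adjusted. Leaving out a pool gave 9 to 17, with 9 without LPS rats 2, 3 and 6, 10 without LPS rats 5, 7 and 11, 9 without LPS rats 8, 9 and 10 and 9 without COMB rats 10 and 11. For HPO against CTL, where none was called, array weights gave 23 (21 lower), the trended and robust fit 1 and the unadjusted t-test 15, and leaving out a pool gave 0 to 2, the 2 without COMB rats 2 and 3. The weighted fit leans on few arrays. HPO rats 7, 8 and 9 had a weight of 6.38, against 0.74 and 0.23 for the other HPO pools. CTL rats 8, 9 and 10 had 4.12, against 0.76 for each other CTL pool. For LPS against CTL 19 were called, 37 with array weights, 37 with the unadjusted t-test, 0 with it adjusted, and 8 to 23 without a pool (10 without CTL rats 1, 3 and 4, 8 without CTL rats 8, 9 and 10, and 10, 12 and 9 without the LPS pools in their order). For COMB against HPO 21 were called, 10 with only the 2 groups and 0 with the adjusted t-test, and 13 to 25 without a pool (13 without HPO rats 7, 8 and 9). For COMB against CTL 21 were called, 3 with the adjusted t-test, and 11 to 24 without a pool (12 without CTL rats 5, 6 and 7, 11 without CTL rats 8, 9 and 10, 13 without COMB rats 2 and 3). For the average effect of LPS 31 were called, and 26 to 31 without a pool.

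The replicate block over pools of CTL and LPS that share rat numbers gave 19 called in LPS against CTL, as without it. The deviations of such pools correlated at 0.039, −0.0076 and −0.0016, so the numbers do not pair them. With a quantile normalization Cacybp missed the threshold in the average effect of LPS (limma adjusted p = 0.0516), with centring Hspe1 did (0.0595), and Dnajb1 passed with quantile normalization (0.0147), a pseudocount of 16 (0.0472), the stricter filter (0.0463), array weights (0.00155) and the trended and robust fit (0.0445). With centring Dnajb1 stayed uncalled (limma adjusted p = 0.112).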
